A study of Mus musculus with 201 samples.

Results

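The RNA of the whole granule cell was set beside that of its nucleus in cells without Fos induction. Of the 201 libraries of the series, each made from 1 cell or nucleus of the mouse dentate gyrus, 58 were compared: 17 whole cells and 41 nuclei. The whole cells came from Prox1-GFP mice that received saline and were killed 1 h after the injection. Their tissue was digested with proteases and GFP+ cells were sorted into Smart-seq2 reactions. The nuclei came from a female C57BL/6 mouse of 8 weeks that spent 15 min in an environment new to it (NE) and was killed 1 h later. These nuclei were freed with a Dounce homogeniser, stained for PROX1 and FOS, and sorted as PROX1+/FOS-. The sources differ on whether 1 saline mouse was used or 2 were pooled, and the sex and age of the Prox1-GFP mice are not given in the sources used here. Set beside them for some values were 40 FOS+ nuclei of the NE mouse, 23 nuclei of a home cage (HC) mouse, and 16 whole cells of Prox1-GFP mice given the convulsant pentylenetetrazole (PTZ) that met the same Fos limit. Each group was taken as 1 sample, no p-value was computed, and the spread over cells is given as a description. Genotype, treatment, dissociation, amplification and sequencing layout all differed between the groups and cannot be told apart from the compartment. Fewer transcripts of a kind and less RNA per library of another kind cannot be told apart either, since every value is relative to its own library.

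Fos itself chose the whole cells, together with depth. Of 38 saline cells with a total expected count over 50000, the 17 with Fos at 100 TPM or less (a transcript's level corrected for its length and scaled to its library) were kept, and Fos in them was at 0, 1.24 and 2.58 TPM (lowest, median and highest library, the order used throughout). The first cell outside this limit was at 190.3 TPM. The shallowest nucleus kept held 63775 counts and the deepest one dropped held 46086. Of 48 FOS- nuclei, the 41 above 50000 counts all passed the limit on detected genes, the table mean minus 2 SD, and the highest of them held 13.8 TPM of Fos. That limit was 693 genes for NE nuclei and -5.39 for whole cells, which no whole cell could fail. It removed no library of either group beyond those dropped for depth. Total counts ran from 417093 to 2696043 in the whole cells (median 1143671) and from 63775 to 1060516 in the nuclei (median 214421). Detected genes, with TPM above 1, numbered 4230 to 7022 in the whole cells (median 6213) and 3421 to 9820 in the nuclei (median 6020). When each library was thinned to 50000 counts, the medians were 4807 and 4593 genes. No library was left out by thinning. A gene without a count could still make up 3 counts' worth of the library, which was 0.000111% to 0.000719% of the counts of a whole cell and 0.000283% to 0.00470% of those of a nucleus. This limit includes no error but that of counting, and the binomial intervals given later cover only the number of libraries drawn from 1 pool, not the spread between animals.

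A transcript is made, spliced and capped in the nucleus and most messengers then leave it. Ribosomal protein messengers, which are abundant and long-lived, collect in the cytoplasm, while long noncoding RNAs such as Malat1, which sits in nuclear speckles, and Xist, which coats the inactive X chromosome, stay behind. The first class shares a feature of its start site that ties it to the ribosome, a pyrimidine tract known as a terminal oligopyrimidine motif, through which translation of these messengers is regulated together. The windows around annotated starts of the 4 ribosomal protein genes with the largest excess in whole cells among those with an entry, of the elongation factor Eef1a1, and of Malat1 and Kcnq1ot1 were taken from RefSeq, 15 bases on either side of the start, with the letters CTTTC in capitals where they occur, and likewise the letters CTTTT and where present the letters CTTCC.
Rplp0: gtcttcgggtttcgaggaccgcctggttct
Rps26: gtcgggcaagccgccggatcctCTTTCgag
Rps9: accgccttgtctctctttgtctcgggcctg
Rpl4: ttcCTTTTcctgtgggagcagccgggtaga
Eef1a1: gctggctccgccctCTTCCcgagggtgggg
Malat1: ctccgggctctgcgtcaggcattcaggcag
Kcnq1ot1: agccgttgtcgctaggaggaacagttgcct
In build GRCm38.p6 these windows lie at chr5:115559452-115559481 on the plus strand, chr10:128626492-128626521 on the minus strand, chr7:3704026-3704055 on the plus strand, chr9:64173372-64173401 on the plus strand, chr9:78481710-78481739 on the minus strand, chr19:5802658-5802687 on the minus strand and chr7:143296533-143296562 on the minus strand. At least 1 of the 3 runs of letters was present on the transcribed strand in the windows of 27 of 58 ribosomal protein genes with an entry (46.6%), and in 15.1% of the 27025 genes of the table. Of 18 long noncoding RNAs with an entry, 1 held one. The share of genes with a run was 42.9% for snoRNA host genes (6 of 14) and 20.9% for splicing genes. For the respiratory chain it was 24.6%, and for translation factors 17.9%. For cytoskeletal and glycolytic genes it was 10.0%, and for secretory pathway genes 6.67%. The reverse complements were found in 20.7% of the ribosomal protein windows and in 15.1% of all windows. A run was counted anywhere in the window, and that of Rpl4 lies before the annotated start. The count therefore does not show a terminal oligopyrimidine motif at the start itself. Rplp0 and Rps9 held none of the 3, so these letters did not mark every member with a large difference. Other runs of C and T were not searched, and the window of Rps9 holds an unbroken one across its middle. The search therefore cannot say that Rplp0 and Rps9 lack the motif.

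Both groups carried granule cell transcripts. All 16 markers listed for granule cells passed the filter used for genes, and Prox1, the transcription factor used for both sorts, was detected in 17 of 17 whole cells and 34 of 41 nuclei. Camk2a was detected in 17 whole cells and 40 nuclei, and C1ql3, a synaptic organiser made by these cells, in 17 and 37. Transcripts listed for other cell types took little of either group. The summed share of TPM reached at most 0.0173% in a whole cell and 0.0739% in a nucleus for 13 oligodendrocyte markers, and 0.0234% and 0.247% for 10 astrocyte markers. It reached 0.0167% and 0.0140% for 10 microglia markers, and 0.00303% and 0.0342% for 10 endothelial markers. Single genes of these lists were nonetheless found more often in nuclei. S100b was above 1 TPM in 31 nuclei and in no whole cell, with a median of 3.9 TPM in nuclei, and Cx3cr1 was above 1 TPM in 33 nuclei and in no whole cell, with a median of 4.83 TPM. Of 10 interneuron markers, Cck and Gad1 alone passed the filter, both higher in whole cells, by 2.31 and 3.72 log2 units. Of the other 8, 7 were above 1 TPM in 2 to 8 nuclei, and of these Reln alone was above 1 TPM in a whole cell. Pvalb was at 0 in every library of both groups.

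Some sex-linked transcripts separated the groups, and others did not. Xist was at 34.3, 219 and 1131 TPM in nuclei and detected in none of 17 whole cells (exact binomial 95% interval 0% to 19.5%), where its highest value was 0.13 TPM. Eif2s3y, a Y-linked translation initiation factor gene, was at 20.6, 218 and 707 TPM in whole cells and at a median of 0 TPM in nuclei, detected in 10 of 41. Thus Xist and Tsix, its antisense partner, differed with the sex of the animals as well as with the compartment, and these cannot be told apart. The libraries did not keep strand, so that reads of Xist and Tsix, of Prox1 and Prox1os or of Malat1 and Gm37376 could not be told apart where the genes overlap. The Y-linked genes Kdm5d and Uty were listed above 1 TPM in 41 and 38 of the 41 nuclei of the female mouse, with medians of 25.1 and 12.1 TPM.

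Across the 9662 gene symbols detected in at least 25% of libraries, taken as the mean of the 2 groups' shares, 2490 (25.8%) were at least 2 log2 units higher in whole cells and 1511 (15.6%) were at least 2 log2 units higher in nuclei, on the scale of mean log2(TPM + 1). The median difference over all 9662 genes was 0.33, and the middle of the distribution ran from -1.33 to 2.07 (lower and upper quartile). Whole cells therefore held 62.2% of the calls. After centring on the median this was 51.9% (2110 and 1954 genes), and with the ratio of mean TPM, which gives weight to a few very high libraries, it was 28.7% (1041 and 2588 genes). Against the 11 nuclei amplified under the same conditions as the whole cells it was 42% (1869 and 2577 genes). The balance between the directions thus moved with scaling and amplification condition, and the classes below are read against the median of all genes.

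**Figure D1:**
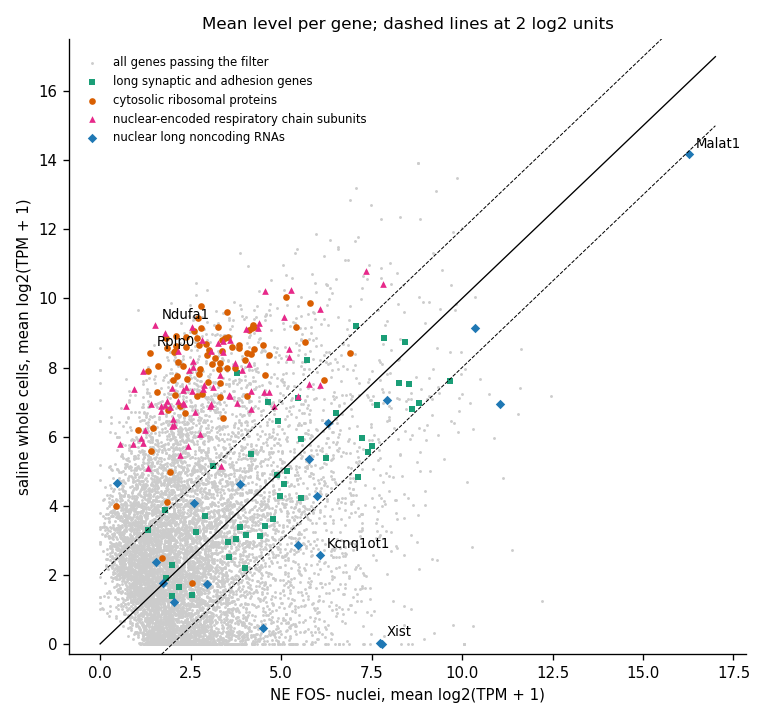
Mean log2(TPM + 1) of each gene passing the filter in 41 NE FOS- nuclei (horizontal) and 17 saline whole cells (vertical), with 4 gene lists in colour. The solid line marks equal means and the dashed lines 2 log2 units. Ribosomal protein and respiratory chain genes lie above the upper dashed line with few exceptions, and Malat1, Kcnq1ot1 and Xist on or below the lower one.

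Messengers of the cytosolic ribosome were far higher in whole cells. All 79 passed the filter, 75 were at least 2 log2 units higher in whole cells and 0 in nuclei, with a median difference of 4.97 log2 units against 0.33 over all genes. Their summed share of TPM was 2.10%, 3.30% and 5.35% in whole cells and 0.4935%, 1.09% and 2.87% in nuclei. Of the 41 nuclei, 35 lay below the lowest whole cell. The medians were 2.2 percentage points apart in TPM and 0.768 apart as shares of expected counts, which are not corrected for the short length of these messengers. Rplp0, of the ribosomal stalk, was at 115, 357 and 747 TPM in whole cells and at 0, 0 and 1432 TPM in nuclei, a difference of 7.03 log2 units. It was detected in every whole cell but in 7 of 41 nuclei (exact binomial 95% interval 7.15% to 32.1%), and the highest of those nuclei was above every whole cell. Rps26 was at 136, 463 and 1208 TPM in whole cells and 0, 0 and 838 TPM in nuclei. The 4 members short of 2 log2 units were Rps27 (-0.79), Rpl12 (0.80), Rpl10a (1.44) and Rpl7 (1.52). Ribosomal protein genes have many near-identical processed copies in the genome, among which the counting divides reads, so single members are uncertain.

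The nuclear-encoded subunits of the respiratory chain stood beside the ribosome. All 74 passed, 70 were past 2 log2 units in whole cells and 0 in nuclei, with a median of 4.65. Ndufa1, an accessory subunit of complex I, was at 344, 565 and 1222 TPM in whole cells and 0, 0 and 537 TPM in nuclei, the largest difference of the list at 7.70 log2 units. Cox5a, of cytochrome c oxidase, was at 166, 529.8 and 1276 TPM in whole cells and 0, 0 and 800 TPM in nuclei. The median nucleus lacked both, and single nuclei reached the levels of whole cells. Ndufb2 was least different, at 1.41 log2 units. The class took 1.63%, 3.07% and 5.24% of TPM in whole cells and 0.581%, 1.03% and 2.78% in nuclei.

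Glycolytic and cytoskeletal messengers, translation factors and genes of the secretory pathway were higher in whole cells as well. Of 34 cytoskeletal and glycolytic genes that passed, 33 were past the limit in whole cells, with a median of 4.74. Gapdh was at 552, 3832 and 7865 TPM in whole cells and 0, 324 and 2035 TPM in nuclei. Actb, the cytoplasmic actin gene, was present in every library, at 1583, 3973 and 6873 TPM in whole cells and 70, 942 and 7504 TPM in nuclei, and its difference of 2.15 log2 units was one of the smallest of the list. Among 35 translation factors, 27 were higher in whole cells and 0 in nuclei, with a median of 3.53. Of the 8 that did not pass, the lowest were the initiation factor genes Eif4g3 (-0.59) and Eif5b (-0.37), followed by the poly(A)-binding protein gene Pabpc1 (0.06). Eef1a1, the elongation factor that delivers aminoacyl-tRNA, was at 996, 2982 and 4619.7 TPM in whole cells and 0, 293 and 1943 TPM in nuclei. For 36 secretory pathway genes, which are translated on the endoplasmic reticulum, 29 were higher in whole cells and 0 in nuclei, with a median of 3.39.

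**Figure D2:**
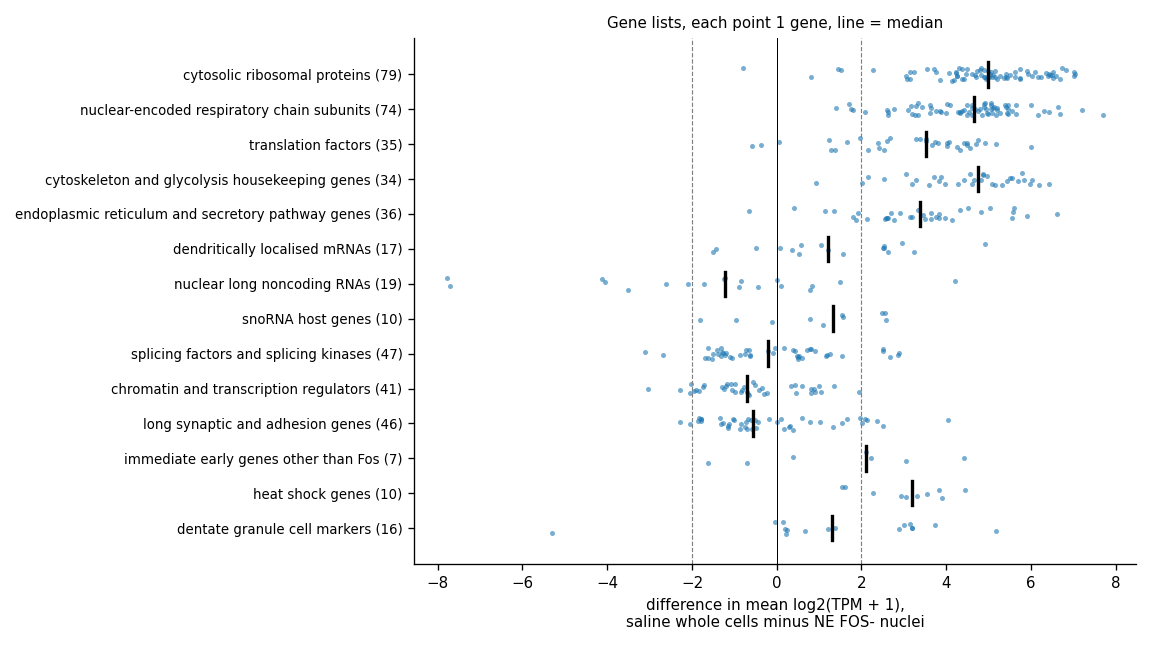
Difference in mean log2(TPM + 1), saline whole cells minus NE FOS- nuclei, for the genes of each list that passed the filter (number in brackets), with the list's median as a line. The 5 lists of cytoplasmic machinery have medians between 3.39 and 4.97, and long noncoding, splicing, chromatin and long synaptic genes have medians below 0.

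In these classes the groups parted mainly in how often a gene was found. The median ribosomal protein gene was detected in 100% of whole cells and 41.5% of nuclei, and after thinning to 50000 counts at least 1 count was present in 94.1% and 31.7%. Among libraries that did detect the gene, the median level was 0.87 log2 units higher in whole cells (median over 79 genes), and 15 of the 79 were higher in nuclei. Respiratory chain genes were detected in 94.1% and 37.8%, with a difference of 0.98 log2 units where detected. Over all genes passing the filter, the medians were 52.9% and 48.8% detected. Of those detected in both groups, 4606 of 9126 were at a higher level in nuclei where detected, with a median difference of -0.02. A mean of log values in such sparse data follows detection first, and the ratio of mean TPM gave ribosomal protein genes a median of 1.60 log2 units in place of 4.97.

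The RNA of the signal recognition particle and transcripts of mitochondrial sequence followed the cytoplasmic messengers. These were chosen after their values were seen. Rn7s1 at chr12:69159295-69159594 and Rn7s2 at chr12:69361182-69361481 (GRCm38) encode near-identical copies of the 7SL RNA, which guides nascent secretory proteins to the endoplasmic reticulum, and the counting gave both the same value. Their sum was 2.05%, 2.89% and 5.45% of TPM in whole cells and 0%, 0.135% and 2.48% in nuclei, and 40 of 41 nuclei lay below the lowest whole cell. The 15 mitochondrially encoded genes listed were not analysed here, since no row carries their symbols. However, 7 pseudogenes on chromosome 1 share at least 90% of their 31-base words with mitochondrial transcripts. Together they took 1.33%, 3.38% and 11.2% of TPM in whole cells and 0%, 0.410% and 4.26% in nuclei, with 34 of 41 nuclei below the lowest whole cell. Gm10925, at chr1:24613974-24614651, was at 3312, 8473 and 32915 TPM in whole cells and 0, 433 and 10748 TPM in nuclei, where 30 of 41 detected it.

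Messengers known to travel into dendrites were divided. Of 20 listed, 17 passed, 7 were past 2 log2 units in whole cells and 0 in nuclei, with a median of 1.22. Dbn1, encoding the spine protein drebrin, was at 97.5, 473 and 1054 TPM in whole cells and 0, 104 and 1455 TPM in nuclei. Nrgn, encoding the calmodulin buffer neurogranin, differed by 2.54 log2 units and Map1b by 2.50. Map2 and Shank1, a dendritic microtubule-binding protein and a postsynaptic scaffold, were higher in nuclei by less than the limit, with differences of -1.42 and -1.51. Map2 was at 4.8, 116.7 and 426 TPM in whole cells and 0, 376 and 1618 TPM in nuclei, so the groups overlapped widely.

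Long noncoding RNAs were higher in nuclei. Of 25 listed, 21 had a row and 19 passed. Of these, 7 were at least 2 log2 units higher in nuclei and 1 in whole cells, with a median of -1.23 log2 units. The 7 include Xist and Tsix, for which sex and compartment cannot be told apart, and without this pair 5 of 17 were higher in nuclei and 1 in whole cells, with a median of -0.88. The summed share of TPM was 0.853%, 2.18% and 4.61% in whole cells and 4.56%, 8.90% and 16.2% in nuclei, where 40 of 41 nuclei lay above the highest whole cell. The difference of the medians, whole cells minus nuclei, was -6.7 percentage points, and -4.07 as shares of expected counts. Malat1 made up most of it. It was at 7129.9, 19521 and 43520.1 TPM in whole cells and 27302, 84946 and 153245 TPM in nuclei, a difference of -2.09 log2 units, and was found in every library of both groups. The share without Malat1 was 0.0493%, 0.240% and 0.403% in whole cells and 0.252%, 0.704% and 2.54% in nuclei.

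Kcnq1ot1, an imprinted RNA that silences neighbouring genes from the paternal chromosome, was at 0.93, 4 and 26.3 TPM in whole cells and 17.2, 72.7 and 116.6 TPM in nuclei, and the groups overlapped only between the lowest nuclei and the highest whole cells. Snhg14, the host transcript of the Prader-Willi snoRNA cluster, was at 6.14, 64.1 and 1505 TPM in whole cells and 281, 2029 and 8988 TPM in nuclei. Airn, the imprinted antisense RNA of Igf2r, was above 1 TPM in 2 whole cells and 35 nuclei. Pvt1 differed by -2.62 log2 units. Other residents of the nucleus differed less: Miat by -1.71, Meg3 by -1.23 and Rian by 0.10. Meg3, the maternally expressed RNA of the Dlk1 locus, was at 11.9, 515 and 2782 TPM in whole cells and 94, 1364 and 13403 TPM in nuclei, with wide overlap. Tug1 and 2900097C17Rik were higher in whole cells, against the name of the list, 2900097C17Rik by 4.20 log2 units and Tug1 by less than the limit. Of the small noncoding RNA genes, 2 of 12 with a row passed, and both Rpph1, the RNA of ribonuclease P, and Rn7sk, which holds back transcription elongation, were higher in whole cells (3.77 and 2.28). They were above 1 TPM in 15 and 11 whole cells and in 3 and 5 of 41 nuclei. Where detected, both were at a higher level in the nuclei, which were shallower. Counts scaled to the library total without length correction gave the pair a median difference of 1.32 log2 units, below the limit.

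**Figure D3:**
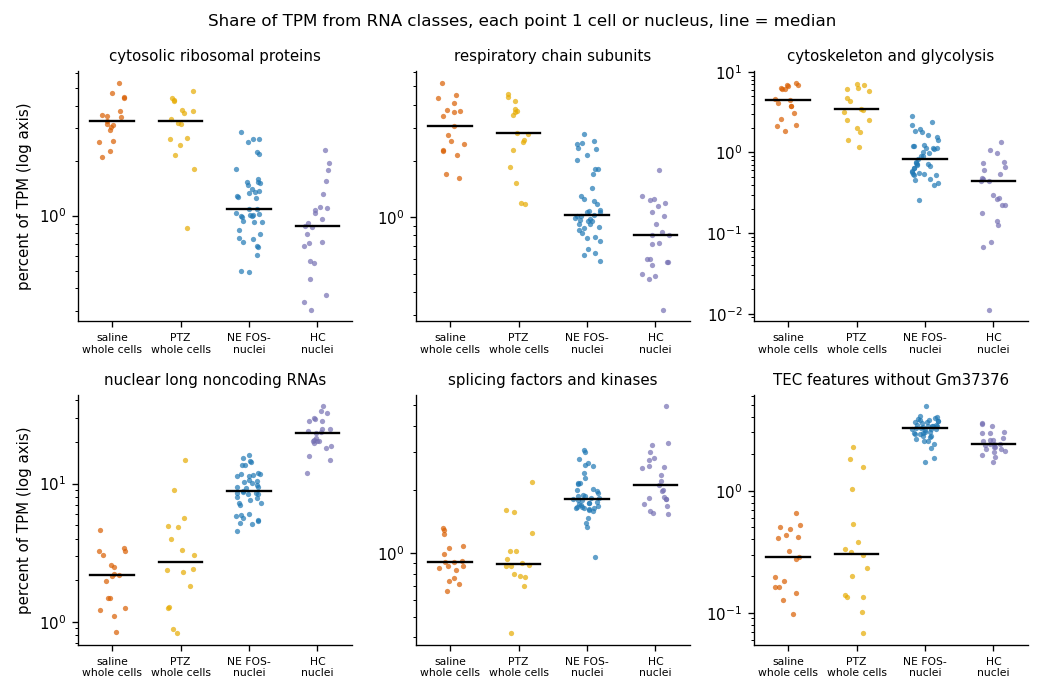
Percent of TPM taken by 6 classes of RNA in each library (log axis) of 4 groups, 17 saline and 16 PTZ whole cells with Fos at 100 TPM or less, 41 NE FOS- and 23 HC nuclei, with the median as a line. Ribosomal, respiratory chain and cytoskeletal classes are higher in both sets of whole cells than in both sets of nuclei at the median, and the lower 3 panels show the opposite order.

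The annotation as a whole divided in the same way. Protein-coding genes took 65.8%, 81.6% and 86.1% of TPM in whole cells and 58.8%, 66.7% and 75.5% in nuclei. Among coding genes passing the filter, 29.4% were at least 2 log2 units higher in whole cells and 9.16% in nuclei. For 355 lincRNAs the figures were 2.82% and 53.2%, and for 257 antisense RNAs 1.95% and 49%. Sense-intronic RNAs, which lie inside introns of coding genes, had 16 of 27 higher in nuclei and 0 in whole cells. The TEC class of GENCODE, mostly single-exon transcripts still without experimental proof, had 191 of 324 higher in nuclei and 1 in whole cells. Between PTZ whole cells and HC nuclei, 28.2% of 181 TEC features were higher in nuclei and 1.66% in whole cells. Of those 191, 110 lay within the bounds of a coding gene on either strand, as did 197 of all 324 that passed. The single TEC feature on the side of whole cells was Gm37376 at chr19:5801941-5802393, which lies antisense within Malat1 at chr19:5795690-5802672 and was at 4367, 13261 and 22533 TPM in whole cells and 0, 1239 and 4683 TPM in nuclei. Without it TEC features took 0.0972%, 0.284% and 0.660% of TPM in whole cells and 1.73%, 3.25% and 4.95% in nuclei, and the groups did not overlap. With Gm37376 added, the share of Malat1 was 1.15%, 3.31% and 6.26% in whole cells and 3.14%, 8.61% and 15.6% in nuclei.

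Annotated features shorter than 200 bases were set apart, because the whole cell libraries were read as pairs of 100 bases and the nuclei as single reads of 50. Of 119 such features that passed, 92 were at least 2 log2 units higher in nuclei, and 33 were at 0 in every whole cell. Most were miRNA genes, with 80 of 96 higher in nuclei. HC nuclei, read as pairs, gave these features a median of 1.59% of TPM against 6.36% in NE nuclei and 0.241% in whole cells. Left out, the count of genes higher in nuclei was 1419 in place of 1511. For coding transcripts the effective length that the counting used, as count over TPM, had a ratio of whole cells to nuclei of 0.897 for transcripts of 400 to 600 bases, 0.993 for 2000 to 4000 bases, and 0.94 for the 79 ribosomal protein genes.

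Gene length ordered the coding genes. Those spanning under 5 kb of genome had a median difference of 2.80 log2 units (717 genes, 63.3% higher in whole cells). The median was 1.87 at 5 to 10 kb, 1.13 at 10 to 20 kb, 0.56 at 20 to 50 kb and 0.10 at 50 to 100 kb. Beyond 100 kb it was level, at -0.12, 0.01 and -0.09 in the 3 longest classes. The length of the longest transcript gave a steeper order, from 3.32 below 1 kb to -0.42 above 8 kb. Genes with over 40 exons had a median of -0.70, and those with 2 to 5 exons 1.65. CPM, counts scaled to the library total without length correction, gave 2.62 and -0.48 for the shortest and longest transcripts. These are descriptions across genes, which are not replicates, and the short classes contain the ribosomal and respiratory genes above.

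**Figure D4:**
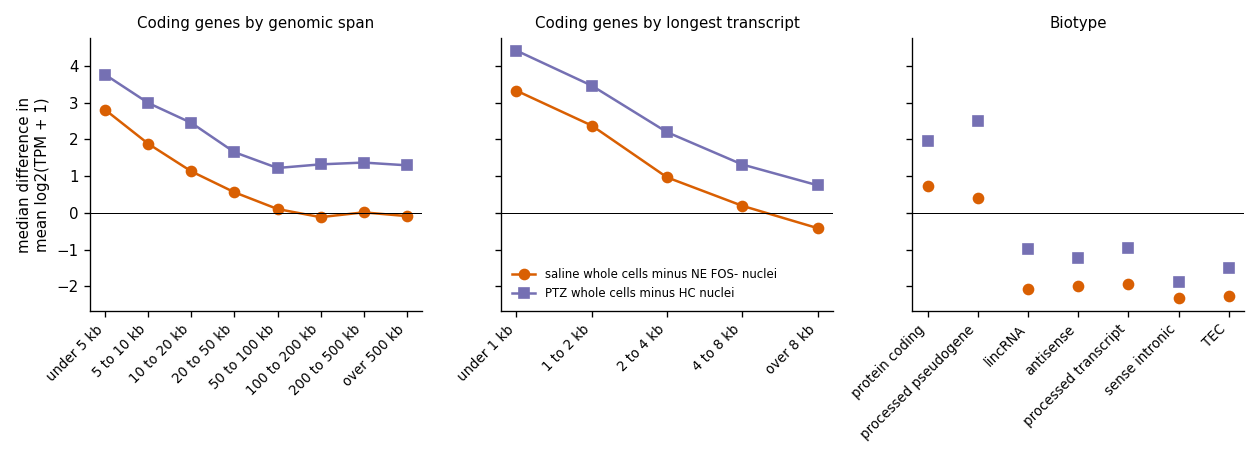
Median difference in mean log2(TPM + 1) of coding genes by genomic span and by longest transcript, and of genes by GENCODE biotype, for saline whole cells minus NE FOS- nuclei (circles) and PTZ whole cells minus HC nuclei (squares). Both pairs fall from the shortest to the longest transcripts, from 3.32 to -0.42 and from 4.41 to 0.75, and the 5 long noncoding biotypes lie below 0 in both.

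Messengers that encode proteins acting in the nucleus, or that come from very long genes, lay near or below the median of all genes. Of 47 splicing factors and kinases that passed, 2 were past 2 log2 units in nuclei and 5 in whole cells, with a median of -0.20. Luc7l2, a factor of the U1 particle, was at 1.1, 86.5 and 359 TPM in whole cells and 4.99, 651 and 1602 TPM in nuclei, and Sfpq, a paraspeckle protein, at 0, 21.4 and 679 TPM and 0, 289 and 2362 TPM. Srsf3, Hnrnpa2b1, Celf4, Rbfox1 and Ptbp2 were the members higher in whole cells. As a share of TPM the class was 0.666%, 0.910% and 1.32% in whole cells and 0.957%, 1.80% and 3.08% in nuclei, and 40 of 41 nuclei lay above the highest whole cell. Nuclei found these genes less often, in 80.5% against 94.1% of libraries at the median, but where detected 37 of 47 were at a higher level in nuclei. Over all genes detected in both groups, 4606 of 9126 were. A level where detected also depends on depth, since 1 count weighs more in a shallower library, and the nuclei were shallower.

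Chromatin and transcription regulators had 4 of 41 past the limit in nuclei and 0 in whole cells, with a median of -0.70. The 4 were Bptf, a subunit of the NURF remodeller (-3.04), the acetyltransferase gene Ep300 (-2.29), Arid1a of the BAF complex (-2.04) and the histone methyltransferase gene Kmt2a (-2.02). Bptf was at 0, 0.89 and 136 TPM in whole cells and 0, 50.9 and 1184 TPM in nuclei. Of 46 long synaptic and adhesion genes, 2 were past the limit in nuclei and 6 in whole cells, with a median of -0.55. Grin2b, encoding an NMDA receptor subunit, was at 73.5, 181 and 774 TPM in whole cells and 37.2, 949.9 and 2328 TPM in nuclei, and Csmd3 differed by -2.28. On the other side Lrrtm4, a synaptic adhesion gene, was at 36.8, 275 and 952 TPM in whole cells and 0, 33.4 and 444 TPM in nuclei. The percentages to read these against are 25.8% and 15.6% over all genes, and the share past the limit in nuclei was below that background in the splicing, chromatin and synaptic lists alike. Relative to the median of all genes the 3 medians stayed below 0 under 10 settings of scaling, pseudocount and amplification condition, at -0.92 to -0.36, -1.38 to -0.65 and -1.0 to -0.49 log2 units.

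By the same measure the cytoplasmic lists stayed above the median of all genes, at 1.96 to 6.19 for ribosomal proteins, 1.67 to 5.90 for the respiratory chain, 2.39 to 5.28 for cytoskeletal and glycolytic genes, 1.69 to 4.39 for translation factors and 1.63 to 3.86 for the secretory pathway. Long noncoding RNAs were at -2.04 to -0.92. The snoRNA host genes changed sign, at -0.49 to 1.66. Of these, 10 passed, 3 were higher in whole cells and 0 in nuclei, and Gas5 differed by 0.79 log2 units, at 344, 943 and 2932 TPM in whole cells and 0, 1191 and 4546 TPM in nuclei.

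The granule cell markers did not move together. Of 16, 7 were past 2 log2 units in whole cells and 1 in nuclei, with a median of 1.30. C1ql2, a synaptic organiser of mossy fibres, was at 65.4, 862 and 2300.3 TPM in whole cells and 0, 23.8 and 1678 TPM in nuclei. Prox1 was at 137, 297 and 1080.4 TPM in whole cells and 0, 49.6 and 462 TPM in nuclei, and its antisense partner Prox1os at 10.7, 1207 and 2418 TPM and 0, 0 and 1849.5 TPM. The whole cells carried a Prox1-GFP transgene and were sorted by it. Whether any of its RNA was counted here was not tested. Calb1, encoding the calcium buffer calbindin, was the exception, at 0, 222 and 762 TPM in whole cells and 939.9, 5599.8 and 24658 TPM in nuclei, with no overlap. Among these nuclei Calb1 ran from 11.66 to 14.59 log2(TPM + 1) at the lower dilution of spike-in RNA. At the higher dilution, which was also that of the whole cells, it ran from 9.88 to 13.69. Why it differed with dilution was not tested. HC nuclei, however, held a median of 188 TPM of Calb1, beside 242 TPM in PTZ whole cells and 3825 TPM in NE FOS+ nuclei. Rbfox3, which encodes NeuN, differed by -0.04 log2 units.

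Dissociation of live cells is known to raise transcripts of the early response and of protein folding. The members of these lists that passed the filter were mostly higher in whole cells. The filter left out 21 of 28 early genes other than Fos and 5 of 15 heat shock genes, and the whole cells had been kept for low Fos. A gene can pass the filter through 1 group alone. Besides Fos, 7 of 28 immediate early genes passed and 4 were past the limit in whole cells. Over all genes 25.8% were past it in whole cells and 15.6% in nuclei. The median of the early genes was 2.12 log2 units against 0.33 over all genes. Against the nuclei of the matched amplification condition it was 0.76, and -0.30 over all genes. Jun was at 0, 163 and 733 TPM in whole cells and 0, 0 and 442 TPM in nuclei, Junb differed by 3.06 and Egr1 by 2.12. Homer1 differed by -1.62. Among 10 heat shock genes that passed, 8 were higher in whole cells and 0 in nuclei, with a median of 3.19. Hspa8, the constitutive Hsc70 gene, was at 0, 968 and 2004 TPM in whole cells and 0, 80.9 and 1464 TPM in nuclei. Protease treatment and compartment cannot be told apart here.

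The genes with the largest differences, 12 in each direction, were chosen by a rule on their values and are described without further weight. On the side of whole cells they were Prox1os, Gm26825, Gstp1, Ndfip1, Ndufa1, Cox5a, Rabac1, Arl6ip5, Atp6v1g2, Scg5, Rplp0 and Rps26, with differences from 8.61 down to 7.02 log2 units. Gstp1, a glutathione transferase, was at 193, 987 and 2023 TPM in whole cells and 0, 0 and 1909.5 TPM in nuclei. Ndfip1 and Rabac1, membrane proteins of the Golgi and endosomes, were at 1421 and 512 TPM at the median of whole cells and at 0 TPM at the median of nuclei, where 15 and 10 of 41 detected them. Gm26825, a lincRNA, was the noncoding exception, at 9.61, 411 and 817 TPM in whole cells and above 1 TPM in 3 nuclei. All 12 were also higher in PTZ whole cells than in HC nuclei, by 4.60 to 9.03 log2 units, none of whose libraries enter the first pair. Those groups, however, differ in genotype and dissociation in the same way. Over all genes compared between them, 45.1% were called for whole cells and the median difference was 1.68.

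On the side of nuclei the 12 were Ppp1r8, Prr15, AA465934, Cp, Tsix, Xist, Sord, Styk1, Gm16892, Cit, Lgmn and Focad, and most of them were low in HC nuclei. Ppp1r8, a nuclear regulator of protein phosphatase 1, was at 0, 7739 and 40337 TPM in NE FOS- nuclei and 0, 0 and 57 TPM in whole cells. Its median was 5979 TPM in NE FOS+ nuclei of the same animal and 0 TPM in HC nuclei, where 1 of 23 detected it. Cp, encoding ceruloplasmin, a plasma copper carrier, was at 0.77, 714 and 2274 TPM in NE FOS- nuclei and at 499 TPM at the median of FOS+ nuclei. In NE FOS- nuclei with the lower dilution of spike-in RNA, Cp ran from 8.42 to 11.15 log2(TPM + 1). With the higher dilution Cp ran from 0.82 to 9.86. It was listed at 0 in all 17 saline whole cells, all 16 PTZ whole cells and all 23 HC nuclei. Prr15, Sord, Cit and Lgmn had HC medians of 0 TPM each, and so had Styk1, AA465934 and Focad, which 9, 4 and 8 HC nuclei detected respectively. Xist and Tsix were present in 23 and 22 of 23 HC nuclei. Gm16892, antisense to Tbc1d23, was above 1 TPM in 16 HC nuclei. NE nuclei also differed from HC nuclei in animal, exposure to the new environment, staining, amplification platform and sequencing layout, which cannot be told apart.

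**Figure D5:**
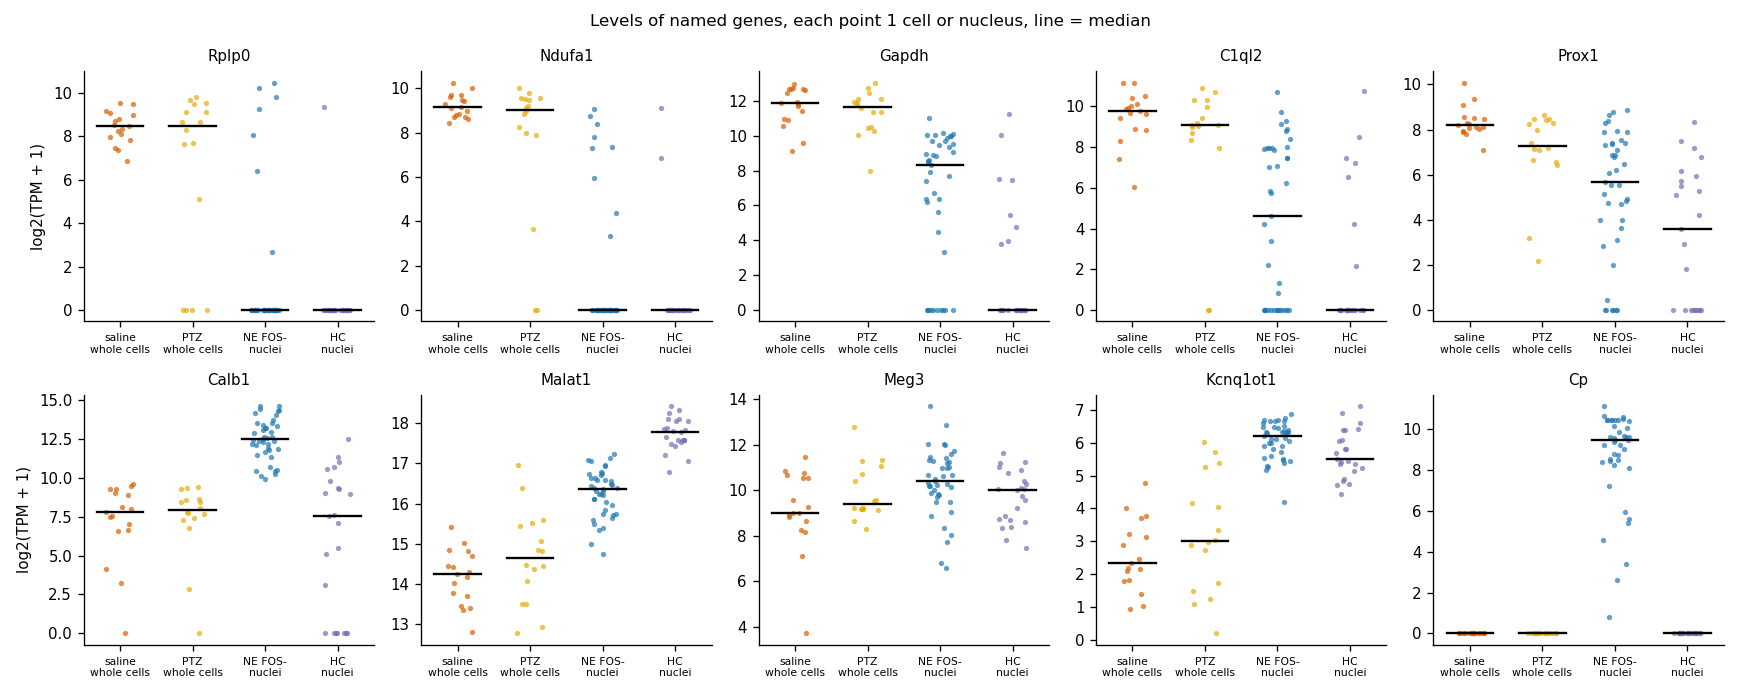
log2(TPM + 1) of 10 named genes in each library of 4 groups, with the median as a line: 17 saline and 16 PTZ whole cells with Fos at 100 TPM or less, 41 NE FOS- nuclei and 23 HC nuclei. Rplp0, Ndufa1, Gapdh and C1ql2 are near the level of whole cells in some nuclei and at 0 in others, Malat1 and Kcnq1ot1 are high in both sets of nuclei, and Calb1 and Cp are high in NE FOS- nuclei among these 4 groups.

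A second pair that shares no library with the first was formed, after the first had been seen, from 16 PTZ whole cells with Fos at 100 TPM or less and 23 HC nuclei. PTZ blocks GABA(A) receptors, and the HC nuclei were NeuN+/Prox1+ nuclei of a C57BL/6 mouse captured on a microfluidic chip. Of 7016 genes passing the filter, 3163 (45.1%) were at least 2 log2 units higher in whole cells and 466 (6.64%) in nuclei, with a median difference of 1.68. HC nuclei held 2329 to 3986 detected genes, fewer than any of the other groups at the median. The calls for whole cells largely recurred: 1893 genes were called in both pairs, 76.0% of the first list and 59.8% of the second. For nuclei, 189 genes were called in both, 12.5% of the first list and 40.6% of the second. Only 824 of the 1511 genes of the first list passed the filter of the second pair, and the 189 were 22.9% of these. For whole cells 2151 of 2490 passed it, of which the shared genes were 88%. The genes called for nuclei in the first pair had a median level of 4.0 log2 units in NE FOS- nuclei, 3.86 in NE FOS+ nuclei, 1.34 in HC nuclei, 0.62 in saline and 0.76 in PTZ whole cells, and 184 of them were above 1 TPM in no HC nucleus.

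By class, the cytoplasmic lists again lay above the median of all genes and the 4 lists of long noncoding, splicing, chromatin and long synaptic genes below it. The median difference was 5.98 log2 units for ribosomal proteins, 5.58 for the respiratory chain, 6.88 for cytoskeletal and glycolytic genes, -0.04 for long noncoding RNAs, 0.88 for splicing genes, 0.44 for chromatin genes and 1.33 for long synaptic genes, against 1.68 over all genes. Ribosomal proteins took 0.851%, 3.29% and 4.79% of TPM in PTZ whole cells and 0.304%, 0.880% and 2.29% in HC nuclei. Long noncoding RNAs took 0.827%, 2.73% and 14.8% and 12%, 23.2% and 36.4%. Malat1 was at 6975, 25651 and 127736 TPM in PTZ whole cells and 113657, 224995 and 353150 TPM in HC nuclei, and Kcnq1ot1 at 0.14, 7.09 and 64 and 20.8, 44.4 and 138 TPM. Luc7l2 was higher in nuclei in both pairs (-3.10 and -3.35 log2 units), as were Sfpq (-2.69 and -2.42) and Snhg14 (-4.13 and -2.29). Bptf was near equality in the second pair, at -0.26 log2 units. Gm37376, higher in whole cells in the first pair, was at 51752, 112900 and 193863 TPM in HC nuclei and differed by -2.86 in the second, the opposite direction.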

How the data were processed

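Single whole cells and single nuclei were sequenced after Smart-seq2 or microfluidic amplification. The authors trimmed the reads with Solexa-QA++ and estimated each gene's level with RSEM on Bowtie 1.0.0 alignments to mm10. They deposited expected counts per gene, not normalized, and TPM per gene. Whole cells and HC nuclei were read as pairs of 100 bases and NE nuclei as single reads of 50 bases. Libraries were not stranded, and RSEM divides reads among near-identical copies. The tables name genes by symbol, and 42609 symbols were shared.

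Libraries were grouped by their labels and limited to a total expected count above 50000, to Fos at 100 TPM or less for whole cells, and to detected genes (TPM above 1) above the table mean minus 2 SD. All 23 HC nuclei were kept, of which 1, with 2329 detected genes, lay below that limit in its own table. A gene was compared where the mean of the shares of libraries with TPM above 1 in the 2 groups was at least 25%. The measure was the difference in mean log2(TPM + 1), whole cells minus nuclei, and a gene was called at 2 log2 units either way. A difference on this scale understates the change of low genes. No test was made, since each group is 1 pool of animals or 1 animal. The averaging and calling were tested on simulated counts of well-counted genes, scaled to the library total. That simulation left out TPM, the detection filter and sparsely counted genes. Thinning drew 50000 counts per library after rounding. Coordinates, biotypes and transcript lengths came from GENCODE M21 on GRCm38, matched by symbol for 9361 of the 9662 genes compared, and start windows from RefSeq. Besides members of the lists, the 12 genes with the largest difference in each direction were named, among called coding or long noncoding genes whose quartiles did not overlap and whose direction held in all 4 amplification conditions of the nuclei and by counts. The members and lists were chosen with earlier results of these data known. The 15 mitochondrially encoded genes are not analysed here. Alternatives of unit, pseudocount, filter, scaling, depth and libraries were computed with Python 3.11.15, numpy 2.4.6, pandas 2.3.3 and scipy 1.17.1.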

Additional observations from a re-analysis of the deposited data

How the results depend on the processing

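The number of genes at least 2 log2 units higher in nuclei, 1511, was 2470 with a pseudocount of 0.1, 455 with a pseudocount of 10, 786 among genes detected in 50% of libraries, 2588 by a 4-fold ratio of mean TPM, 2577 against the nuclei of the matched amplification condition, 538 against HC nuclei and 466 for PTZ whole cells against HC nuclei. The number higher in whole cells, 2490, was 1074 with a pseudocount of 10, 1530 among genes detected in 50% of libraries, 1041 by the ratio of mean TPM and 1592 with no limits on depth or genes. The stricter detection rule tests fewer genes, and the cause of the other changes was not tested. The difference of the median ribosomal protein share, 2.2 percentage points, was 0.768 as a share of expected counts, and that of the long noncoding RNAs, -6.7, was -4.07 by expected counts, -21.0 against HC nuclei and -20.5 for PTZ whole cells against HC nuclei. Leaving out 1 library at a time gave 1488 to 1559 genes for nuclei, 2407 to 2590 for whole cells, and share differences of 2.15 to 2.30 and -6.92 to -6.61. Against HC nuclei 7 of the 12 genes named for nuclei no longer lay on the side of nuclei, with differences of 1.08 for Ppp1r8, 0.55 for Prr15, 1.71 for AA465934, 0 for Cp, 0.83 for Sord, 0.025 for Cit and 2.26 for Lgmn, and Styk1 and Focad were at -0.80 and -0.57. In the 7 other settings tried, all 24 named genes kept their direction and stayed past 2 log2 units, although the rule that named them already required 1 direction by counts and in each amplification condition. The comparison of PTZ whole cells with HC nuclei, the removal of short features and that of Xist and Tsix were chosen after seeing the data. The share of mitochondrially encoded genes and the rescaling without them were not run, as these genes are not analysed here. No paired analysis was possible because the replicate numbers only name cells and nuclei and no result comes from a test.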
